A study of Bombyx mori with 6 samples.

Results

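The CPG, CPT and CPFL genes of the silkworm Bombyx mori encode structural proteins of the insect cuticle, and the CPH genes hypothetical ones. Their transcripts were read here in the testis. A gene belonged to the set if its RefSeq symbol was CPG, CPT, CPF, CPFL or CPH followed by a number only, leaving out CPH18 to CPH23. Of 15884 genes in the deposited count table, 64 carried such a symbol, and the 34 with at least 10 reads summed over the 6 libraries were kept: 15 CPG, 4 CPT, 2 CPFL and 13 CPH genes. The gene named CPF has no number and falls outside. Of the 30 genes left out, 11 had no reads. Just inside the minimum lay CPH27 with 10 reads and CPH6 and CPH17 with 11 each, and just outside CPG19 with 9 and CPG8 with 8.

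RNA was sequenced from testes of larvae on day 5 of the fifth instar. The 3 GMS libraries came from a genetic male sterile line, labelled as mutant, and the 3 WT libraries from strain 898WB, labelled as its wild type. The labels name neither the mutated gene nor the history of the line, so the effect of the mutation and other differences between the strains cannot be told apart. The libraries are called biological replicates with no word on whether animals were pooled, so p-values reflect only how far these libraries spread, which may be technical.

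The cuticle is secreted by epithelial cells as layers of chitin fibres bound by proteins, and each moult brings out its own set of cuticular protein genes in an order timed by ecdysone. CPG proteins are rich in glycine repeats. CPT proteins belong to the Tweedle family, named after a Drosophila mutant with a short, stout body. CPFL proteins resemble those of the CPF family but lack its conserved motif. CPH is the silkworm name for hypothetical cuticular proteins, which carry none of the family motifs and are therefore a mixed group. The epidermis, the tracheae and other cuticle-lined ducts are the usual sites of these genes, and the testis holds germ cells, somatic cyst cells and a sheath with tracheae.

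The libraries held 19627477 to 28358501 counted reads, so that a count of 3 stood for 0.103 to 0.148 CPM (read counts scaled to library size, with edgeR's TMM factors). WT replicate 3 stood apart: across genes its log2 CPM correlated at 0.985 and 0.982 with the other WT libraries, against 0.995 between those and 0.995 among the GMS libraries. With the GMS libraries it correlated at 0.9464 to 0.9479, against 0.9382 to 0.9435 for the other WT libraries. Of the testis and germ cell markers, the testis beta-tubulin Tub4 stood at 24830 CPM in GMS and 32823 CPM in WT, the testis-specific kinase TSSK at 1642 CPM in GMS and 2014 CPM in WT, and the germ line helicase Vlg at 229 CPM in GMS and 204 CPM in WT. Of the 8 markers, the meiotic regulator Boule was near 0, at 0.025 CPM in GMS and 0.014 CPM in WT, and the nanos gene nos-M was low, at 0.490 CPM in GMS and 0.781 CPM in WT. Of the 7 that could be tested, Dmc1, Aubergine and Vlg were called higher in GMS and Tub4 and TSSK lower, and the median log2 change was 0.17. The share called over all genes tested was 36.2%. The summed level of the 8, nearly all from Tub4, was 26568 to 27252 CPM in GMS and 32294 to 36938 CPM in WT.

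Genes of the set moved in both directions, and 6 of the 9 tested glycine-rich genes and 3 of the 4 Tweedle genes were higher in GMS. Of the 34 genes, 12 rose in GMS, 7 fell, 5 did not pass the test and 10 had too few reads to be tested (quasi-likelihood test of edgeR with Benjamini-Hochberg adjustment, adjusted p under 0.05). Among all 12029 genes tested, 17.6% were higher and 18.6% lower in GMS by the same rule, 36.2% in all. At least a 2-fold difference was seen for 10 genes that rose and 4 that fell, where 5.04% and 5.25% of all genes did so, 10.3% in all. The median log2 change of the 24 tested genes was 0.52, against 0.05 over all genes, and the median of the absolute changes was 1.44, against 0.25 over all genes. The filter on low counts asked for about 0.408 CPM, here on library totals without TMM factors, in at least 3 libraries. Of the 24 tested genes, 6 (CPG9, CPG11, CPG14, CPG20, CPG24 and CPT3) reached that level in all GMS libraries but not in all WT libraries, and 3 (CPFL2, CPH30 and CPH34) reached it in all WT libraries but not in all GMS libraries, so that passing the filter was tied to the direction in which they differ. CPG10 reached it in 2 libraries of each strain, and the other 14 in all libraries of both. The GMS and WT libraries did not overlap for 21 of the 24 tested genes, all but CPG10, CPG13 and CPH28, and for 51.0% of all genes tested.

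**Figure D1:**
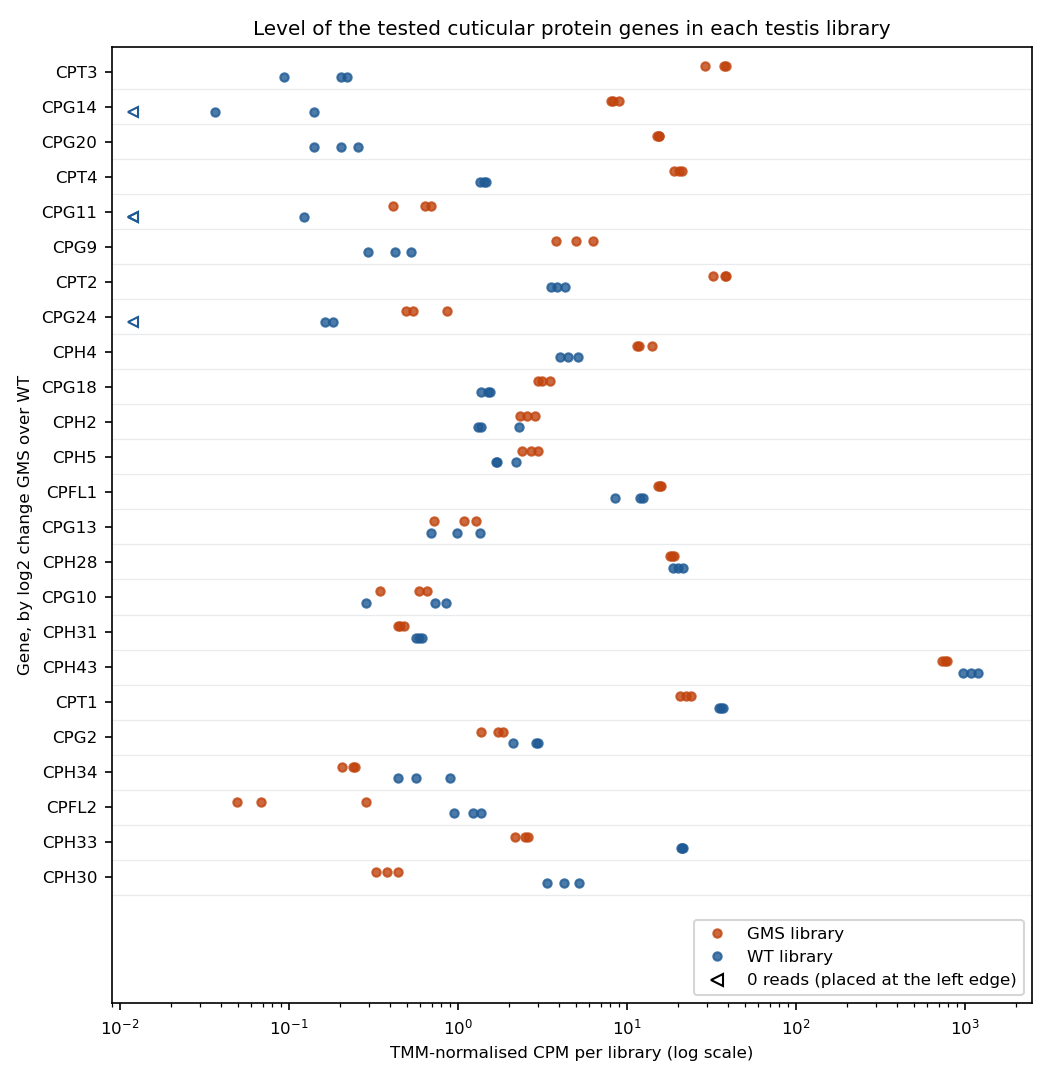
Level of the 24 tested genes in each library, as TMM-normalised CPM on a log axis, with GMS points above WT points in each row and genes ordered by log2 change. The spread within a strain is small beside the gap between strains for CPT3, CPG20 and CPT4 at the top and for CPH33 and CPH30 at the bottom, while the points of CPG13 and CPG10 overlap.

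Without WT replicate 3 the same 19 genes were called in the same direction, and CPH28 was called lower as well, giving 12 higher and 8 lower. Of all genes tested in that fit, 58.0% were called, 29.0% higher and 29.0% lower. In bulk tissue the data do not tell fewer cells of a type from less RNA per cell. These are also families of similar genes, and the counting may have split reads between close copies or dropped them.

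The Tweedle genes gave the clearest contrast, with CPT2, CPT3 and CPT4 higher and CPT1 lower in GMS. CPT3 had 38.4, 37.7 and 29.1 CPM in the GMS libraries, against 0.220, 0.205 and 0.0943 CPM in the WT libraries. It was plainly present in every GMS library and at the edge of detection in WT, with 2541 reads in GMS and 13 in WT. The log2 change was 7.58 with a standard error of 0.23 (edgeR adjusted p = 9.84e-07). As a ratio of summed reads the difference was 193 (95% interval for counting error, 113 to 364). CPT4 had 21.2, 20.5 and 19.0 CPM in GMS, against 1.36, 1.43 and 1.46 CPM in WT. Its libraries were tight in both strains, and its log2 change was 3.83 with a standard error of 0.11 (edgeR adjusted p = 6.64e-07). CPT2, formerly described as the glycine-rich protein gene Grp1, had 38.4, 38.9 and 32.3 CPM in GMS, against 3.56, 4.34 and 3.87 CPM in WT. It was expressed in both strains and rose by 3.22 on the log2 scale (standard error 0.12, edgeR adjusted p = 2.37e-06). GMS replicate 3 was the lowest GMS library for all of these risers.

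CPT1 went the other way. It had 20.8, 22.4 and 24.0 CPM in GMS, against 36.1, 35.4 and 37.0 CPM in WT, so that each GMS library lay below each WT library. The log2 change was -0.69 with a standard error of 0.08 (edgeR adjusted p = 0.000438). Of the Tweedle genes it was the most abundant per gene length in WT, at 6.71 ± 0.0710 RPKM (reads per kilobase scaled to library size, the authors' values; SD, n = 3), and the least abundant in GMS, at 4.33 ± 0.318 RPKM.

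Among the 15 glycine-rich CPG genes, 6 rose, 1 fell, 2 did not pass and 6 were not tested. CPG20 had 15.5, 15.1 and 15.6 CPM in GMS, against 0.257, 0.205 and 0.141 CPM in WT. The GMS libraries nearly coincided, and the WT libraries held 7, 5 and 3 reads. The log2 change was 6.19 with a standard error of 0.17 (edgeR adjusted p = 5.55e-07). CPG14 had 8.32, 9.01 and 8.03 CPM in GMS, against 0.0367, 0 and 0.141 CPM in WT. In WT this was 4 reads in all, and in GMS 621. Its log2 change was 7.14 with a standard error of 0.37 (edgeR adjusted p = 1.02e-05), and 8.4 without WT replicate 3, which held 3 of the 4 WT reads. As a ratio of summed reads it was 154 (interval 59.7 to 566).

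CPG9 and CPG18 were detected in both strains and rose less. CPG9 had 5.02, 6.29 and 3.83 CPM in GMS, against 0.294, 0.532 and 0.424 CPM in WT. The GMS libraries spread more than for CPG20, though all lay above WT, and the log2 change was 3.59 with a standard error of 0.29 (edgeR adjusted p = 8.98e-05). CPG18 had 3.50, 3.17 and 2.97 CPM in GMS, against 1.51, 1.55 and 1.37 CPM in WT. Both strains were tight here, and a change of 1.11 on the log2 scale passed with a standard error of 0.14 (edgeR adjusted p = 0.00097).

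CPG11 and CPG24 rose at very low levels. CPG11 had 42 reads in GMS and 3 in WT, a ratio of 13.9 with a counting interval of 4.43 to 69.9 (edgeR adjusted p = 0.00884). All 3 WT reads lay in WT replicate 2. The fitted log2 change was 3.65, 3.03 without WT replicate 1 and 6.82 without WT replicate 2, the last with no WT reads left and so dependent on the prior count. CPG24 had 48 reads in GMS and 9 in WT, a ratio of 5.28 with an interval of 2.56 to 12.2 (edgeR adjusted p = 0.0198). The call on CPG24 was lost without GMS replicate 3, which held 25 of its 48 GMS reads (edgeR adjusted p = 0.0848).

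CPG2 was the only glycine-rich gene called lower, at 1.38, 1.85 and 1.72 CPM in GMS, against 2.90, 2.99 and 2.12 CPM in WT. The highest GMS library came close to WT replicate 3. Its log2 change of -0.69 (standard error 0.19, edgeR adjusted p = 0.0285) was lost without any 1 library but WT replicate 3, at edgeR adjusted p-values of 0.0540 to 0.0983. Without WT replicate 3 the change was -0.87 (edgeR adjusted p = 0.00135). CPG10 and CPG13 did not pass, with log2 changes of -0.19 and 0.01, standard errors of 0.43 and 0.32 and overlapping libraries.

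**Figure D2:**
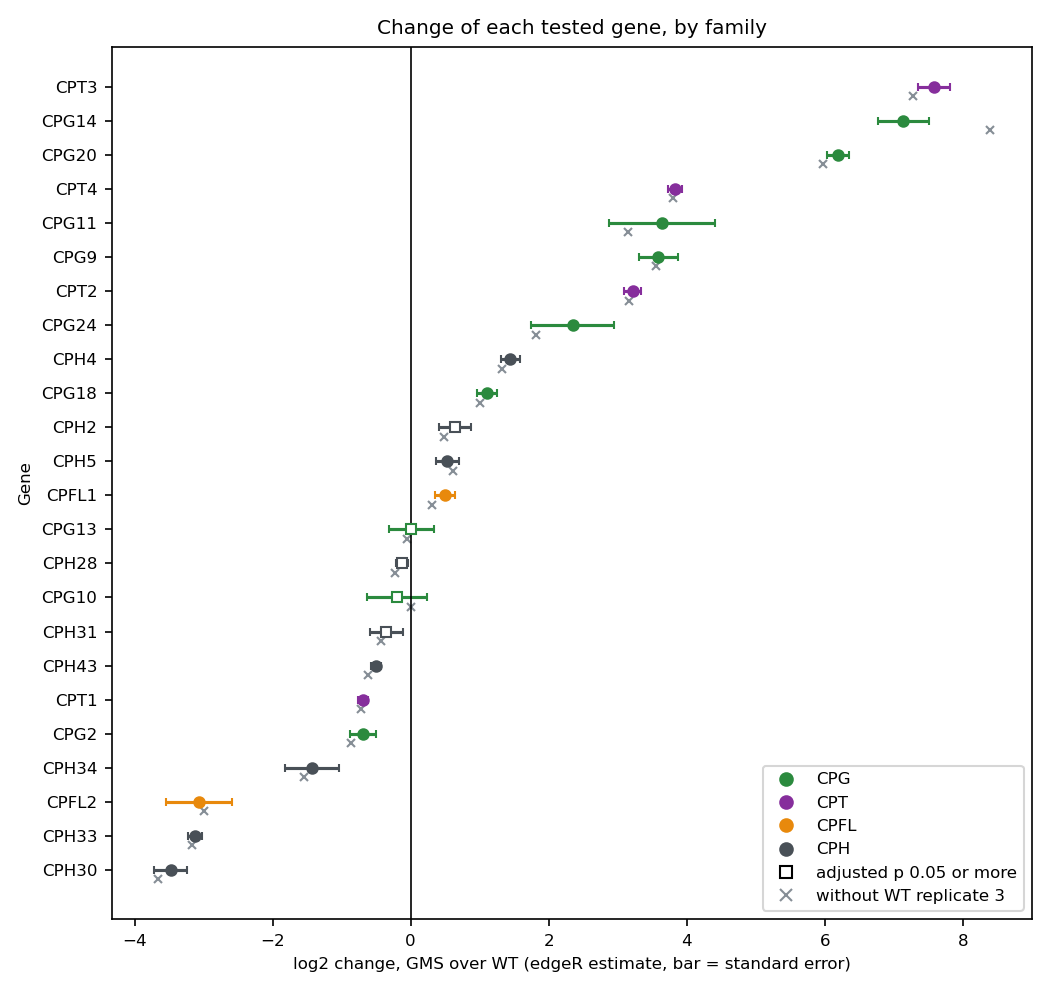
Log2 change of each tested gene in GMS over WT, with its standard error, coloured by family. Open squares did not pass the test, and crosses give the change without WT replicate 3, which keeps its sign for every called gene and moves most for CPG14.

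The CPFL genes went in opposite directions. CPFL2 had 0.0493, 0.288 and 0.0690 CPM in GMS, against 0.955, 1.23 and 1.37 CPM in WT. This was 10 reads in GMS and 85 in WT, and the libraries did not overlap. It fell by 3.06 on the log2 scale, with a standard error of 0.48 (edgeR adjusted p = 0.00224). The log2 change was -4.16 without GMS replicate 2, which held 7 of the 10 GMS reads. CPFL1, the more abundant of the pair, had 15.9, 15.2 and 15.7 CPM in GMS, against 11.9, 12.5 and 8.49 CPM in WT. WT replicate 3 was the low library, and the gap to the other WT libraries was smaller. The log2 change was 0.50 with a standard error of 0.15 (edgeR adjusted p = 0.0319), and 0.30 without WT replicate 3 (edgeR adjusted p = 0.0107). The call was lost without GMS replicate 1, 2 or 3 or WT replicate 1 (edgeR adjusted p from 0.0558 to 0.0980) and with upper-quartile scaling (edgeR adjusted p = 0.0648).

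Among the 13 CPH genes, the mixed group of hypothetical cuticular proteins, 2 rose, 4 fell, 3 did not pass and 4 were not tested. CPH33 had 2.17, 2.59 and 2.52 CPM in GMS, against 21.2, 21.5 and 21.0 CPM in WT. The WT libraries, replicate 3 included, nearly coincided, and every GMS library lay far below them. CPH33 fell by 3.12 on the log2 scale, with a standard error of 0.10 (edgeR adjusted p = 1.28e-06). CPH30 had 0.443, 0.329 and 0.379 CPM in GMS, against 4.26, 5.20 and 3.39 CPM in WT. WT replicate 3 was the lowest WT library and still well above GMS, and the log2 change was -3.48 with a standard error of 0.24 (edgeR adjusted p = 4.53e-05). CPH34 fell at a low level, with 17 reads in GMS and 46 in WT and a log2 change of -1.43 (standard error 0.39, edgeR adjusted p = 0.0254), a call lost without any 1 of the GMS libraries (edgeR adjusted p from 0.0702 to 0.0838) and with DESeq2 (adjusted p = 0.0670). Without WT replicate 2, which held 22 of the 46 WT reads, CPH34 was not tested.

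CPH43 dominated the set in both strains. It had 785, 738 and 769 CPM in GMS, against 1191, 1085 and 975 CPM in WT. All GMS libraries lay below all WT libraries, and WT replicate 3 was the nearest of them. Its log2 change was -0.51 with a standard error of 0.07 (edgeR adjusted p = 0.00161), and -0.62 without WT replicate 3. By RPKM it ranked 17 of all 15884 genes in both strains, at 721 ± 29.1 RPKM in GMS and 984 ± 114 RPKM in WT (SD, n = 3). It supplied 78.6% ± 1.02 of the set's reads in GMS and 90.2% ± 0.661 in WT.

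CPH4 rose, with 11.8, 11.5 and 14.0 CPM in GMS, against 4.52, 5.12 and 4.05 CPM in WT. The groups were well apart, and the log2 change was 1.45 with a standard error of 0.13 (edgeR adjusted p = 0.00017). CPH5 was higher by 0.53 with a standard error of 0.17 (edgeR adjusted p = 0.0462), and this narrow call was lost without any 1 library but WT replicate 3 (edgeR adjusted p from 0.0612 to 0.151). It was also lost with DESeq2 (adjusted p = 0.162), with RLE or upper-quartile scaling (edgeR adjusted p = 0.0514 and 0.0605) and without the filter on low counts (edgeR adjusted p = 0.0535). CPH2, CPH28 and CPH31 did not pass. CPH28 was well expressed, at 18.5 ± 0.517 CPM in GMS and 20.1 ± 1.34 CPM in WT (SD, n = 3), and its log2 change was -0.13 with a standard error of 0.08; without WT replicate 3 it was -0.22 and called (edgeR adjusted p = 0.0293). CPH2 was at 2.59 ± 0.260 CPM in GMS and 1.66 ± 0.547 CPM in WT, missed the threshold (edgeR adjusted p = 0.0703) and passed it without WT replicate 2 (edgeR adjusted p = 0.0110), with library totals only (0.0398) and with limma on the RPKM values (adjusted p = 0.0366 and 0.0411).

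The 10 untested genes (CPG4, CPG7, CPG12, CPG15, CPG16, CPG17, CPH1, CPH6, CPH17 and CPH27) had 10 to 33 reads in all, with means of at most 0.297 CPM in GMS and 0.297 CPM in WT. The counting interval of the ratio lay on 1 side of equality for 3 of them, each with fewer reads in GMS: CPG16 with 1 read in GMS and 12 in WT, CPG17 with 8 in GMS and 22 in WT, and CPH27 with 1 in GMS and 9 in WT. CPG7, CPG12, CPG15, CPH1 and CPH17 had more reads in GMS and CPG4 and CPH6 fewer, each with an interval that included equality. These intervals cover counting error only and do not include the spread between libraries. They were not adjusted for the 10 genes, and the libraries of CPG17 overlapped between the strains.

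Summed over the genes other than CPH43, the level was 207 ± 8.94 CPM in GMS and 117 ± 5.11 CPM in WT (SD, n = 3), and the sums of the 2 strains did not overlap. Not all families shared this shift. CPG genes summed to 37.4 ± 2.0 CPM in GMS and 7.54 ± 0.897 CPM in WT, and CPT genes to 114 ± 8.51 CPM in GMS and 41.7 ± 0.626 CPM in WT. CPFL genes summed to 15.7 ± 0.227 CPM in GMS and 12.2 ± 2.05 CPM in WT. Of the family sums, only that of the CPH genes other than CPH43 went the other way, at 40.1 ± 1.32 CPM in GMS and 55.4 ± 2.76 CPM in WT. Within these sums CPH33 fell, at 2.43 CPM in GMS and 21.2 CPM in WT, while CPH4 rose, at 12.4 CPM in GMS and 4.56 CPM in WT. With CPH43 included, the set as a whole came to 971 ± 23.1 CPM in GMS and 1201 ± 111 CPM in WT.

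**Figure D3:**
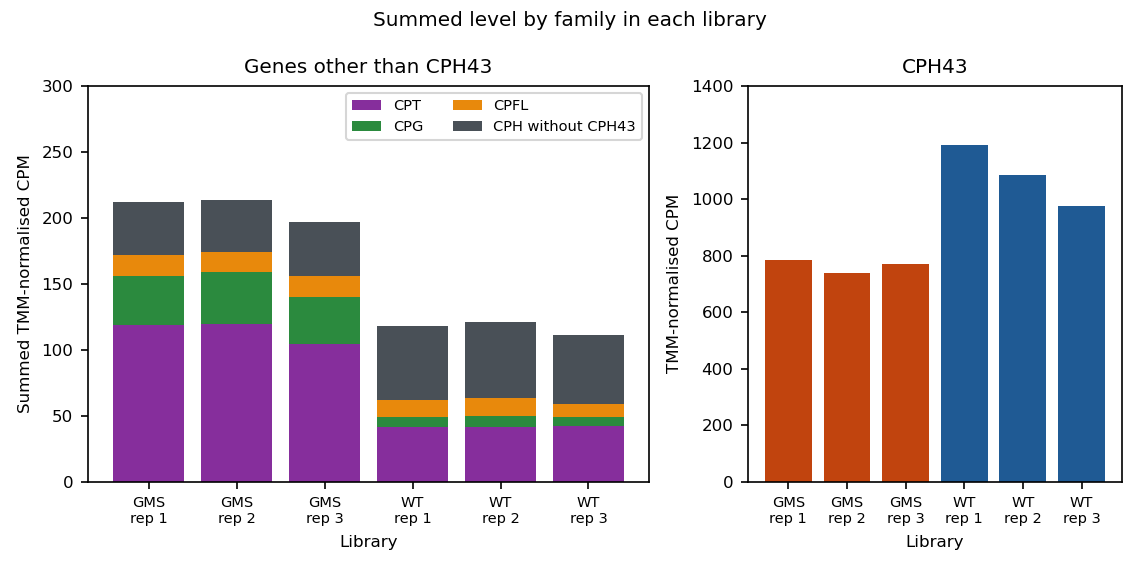
Summed TMM-normalised CPM of the genes other than CPH43, stacked by family (left), and the level of CPH43 (right), in each library. The left bars reach 197 to 214 CPM in GMS and 111 to 121 CPM in WT, and the CPT part is the largest in every GMS library, while CPH43 alone is at 738 CPM or more in every library.

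Measured per gene length, the order of the genes differed between the strains below CPH43, which came first in both. In GMS the next were CPT4 at 12.8 ± 0.674 RPKM, CPT3 at 12.7 ± 1.80 and CPT2 at 10.9 ± 1.03 (SD, n = 3). CPT4 and CPT3 differed by less than the SD of either, and CPT3 and CPT2 by less than the SD of CPT3. CPFL1 followed at 6.86 ± 0.218, CPG20 at 6.24 ± 0.170 and CPH4 at 6.08 ± 0.725, with CPG20 and CPH4 within 1 SD. In WT the second place was held by CPH33 at 8.29 ± 0.234 RPKM, followed by CPT1 at 6.71 ± 0.0710, CPFL1 at 4.65 ± 1.0 and CPH28 at 4.20 ± 0.350, of which CPFL1 and CPH28 lie within 1 SD. CPT3 held rank 3 of the 34 genes in GMS and rank 28 in WT, and CPH33 rank 16 in GMS and rank 2 in WT. At least 1 RPKM was reached by 15 genes in GMS and 10 in WT, 8 of them in both, and the median of all genes was 1.93 RPKM in GMS and 1.74 RPKM in WT.

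**Figure D4:**
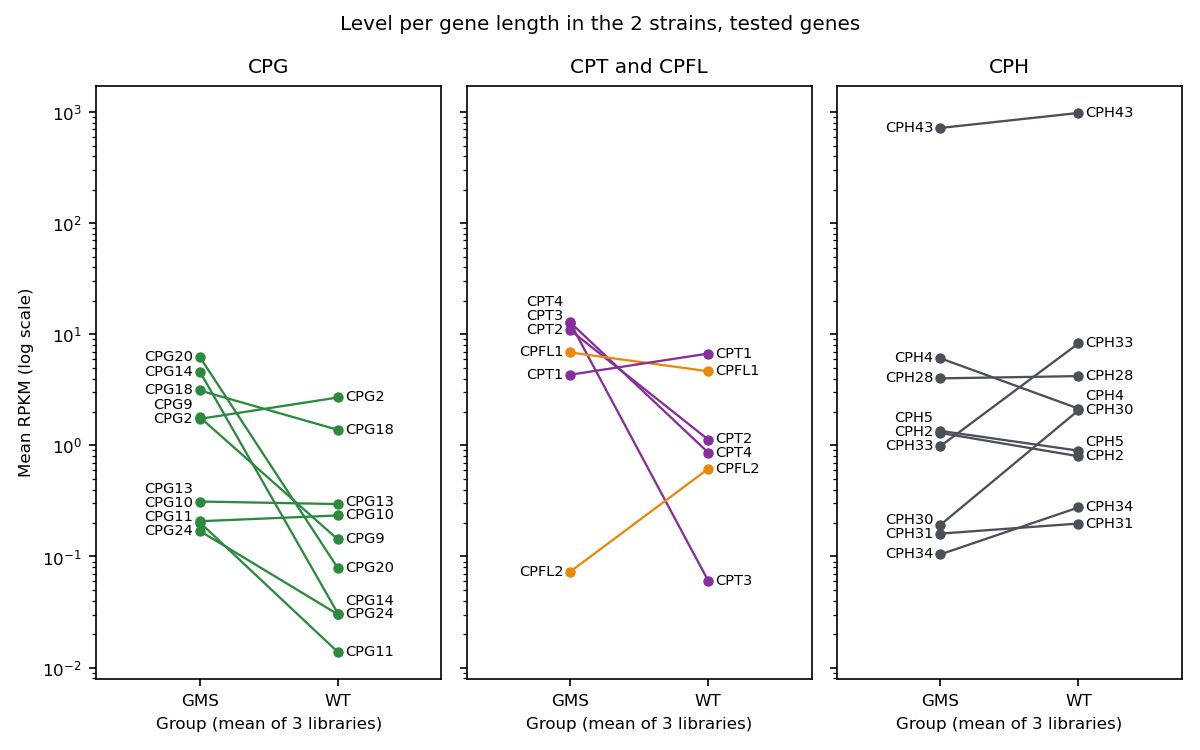
Mean RPKM of the tested genes in GMS (left of each panel) and WT (right), on a log axis, each line being 1 gene. CPT2, CPT3 and CPT4 meet between 10.9 and 12.8 RPKM in GMS and spread from 0.0605 to 1.13 RPKM in WT, while CPH43 stays far above all others in both.

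The direct neighbours of the genes with large changes were compared with them. On the RefSeq assembly ASM3026992v2, used only for the order of genes, the 14 genes changed at least 2-fold had 28 different direct neighbours in the count table, of which 17 were tested. None of these 17 was called in the same direction with at least a 2-fold change, where 5.04% and 5.25% of all genes were called so. At these shares 17 genes would often hold none, so the 0 does not set neighbours apart from other genes. The count was also 0 at an unadjusted edgeR p under 0.05, with DESeq2 and with limma-voom. In either direction and at any size, 10 of the 17 were called (edgeR), against 36.2% of all genes. Of these, 4 passed in the same direction as their cuticular protein gene, at under 2-fold. Among all genes 17.6% were called higher and 18.6% lower. CPT2, for instance, had neighbours that rose by 0.31 and 0.45 on the log2 scale, against its own 3.22. Next to CPG14, LOC101737217 fell by 1.08, and next to CPG24, LOC101736500 had 0 reads in GMS and 371 in WT, which is at least 125-fold lower against a floor of 3 counts over the GMS libraries. Some genes of these families lie side by side. Several of them held too few reads to be tested, and differences between neighbouring genes were not tested. In the row CPG11, CPG12 and CPG13, the first rose, the second had 15 reads in all, and CPG13 did not pass. CPFL1 and CPH4 rose, and CPH3 between them, which is outside the set, had 3 reads, all in WT replicate 1. CPH17, which lies next to the CPH18 to CPH23 cluster, had 7 reads in GMS and 4 in WT.

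**Figure D5:**
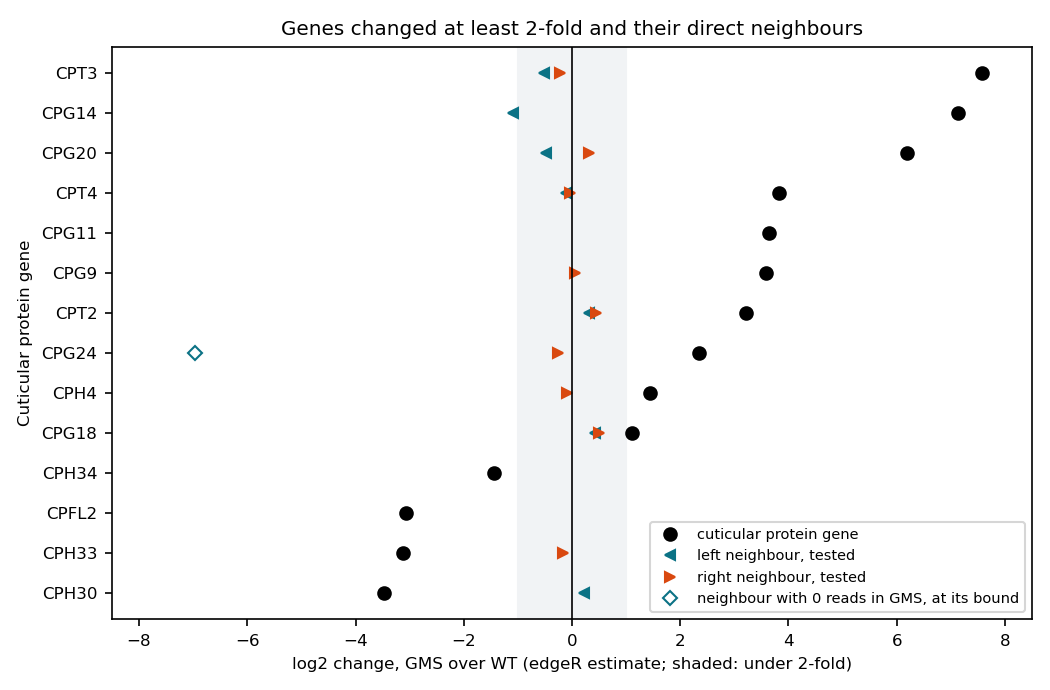
Log2 change in GMS over WT of the 14 genes changed at least 2-fold (circles) and of their tested direct neighbours (triangles), with changes under 2-fold shaded. The triangles lie in or near the shaded band, and the open diamond beside CPG24 marks a neighbour with 0 reads in GMS, drawn at its bound.

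Other cuticular protein genes moved in both directions as well. Of 52 tested genes with other cuticular symbols, 15 rose and 16 fell, and the median change was 0.02 on the log2 scale. Over all genes tested, 17.6% rose and 18.6% fell. At 2-fold or more, 14 of the 52 rose and 11 fell, where 5.04% and 5.25% of all genes did so. Large changes were thus frequent in these genes too, as in the set. The 6 genes CPH18 to CPH23 all rose, with CPH21, CPH18, CPH23 and CPH19 at the smallest p, and of 45 genes of the CPR family, named for a chitin-binding motif, 9 rose and 15 fell. Of 14 tested genes of chitin and cuticle formation, 4 rose and 4 fell, and the median was -0.15. Ebony, which makes the tanning precursor N-beta-alanyldopamine, rose by 2.18 on the log2 scale (edgeR adjusted p = 0.000168), and the pigmentation genes yellow-f, Y-d and yellow-12 fell, with log2 changes of -1.08, -1.90 and -1.3. The laccase gene Lac2 and the tyrosine hydroxylase gene Th, whose products tan the cuticle, had log2 changes of -0.28 and -0.12 and did not pass (edgeR adjusted p = 0.399 and 0.463).

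Of 17 genes of ecdysone and juvenile hormone signalling, which time cuticular gene expression, 4 rose and 2 fell (6 and 5 without WT replicate 3), and the median change was -0.08 on the log2 scale. These counts lay near the shares over all genes tested, of which 36.2% were called, and 58.0% without WT replicate 3. Cyp18a1, which inactivates ecdysteroids, rose by 3.41, the juvenile hormone esterase gene jhe1 by 1.80 and the ecdysone-induced receptor gene Hr3 by 0.48, and the ecdysteroid synthesis gene Cyp302a1 fell by 0.34. The receptor gene EcR and the induced genes E74, E75 and Br-c had log2 changes between -0.14 and 0.04 and did not pass (edgeR adjusted p from 0.398 to 0.788).

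Markers of other tissues were compared beside these changes. Over all genes tested, 17.6% rose and 18.6% fell in GMS. Of 6 Osiris genes, which in Drosophila are expressed in cuticle-forming epithelia such as the tracheae, all 5 that could be tested rose, and their summed level was 142 to 159 CPM in GMS and 5.65 to 6.47 CPM in WT. Of 8 genes of the fat body and haemolymph, 7 fell and the vitellogenin gene VG did not pass, and they summed to 202 to 216 CPM in GMS and 386 to 512 CPM in WT, of 4 tested haemocyte genes 2 rose and 2 fell, with sums of 121 to 135 CPM in GMS and 89.0 to 109 CPM in WT. Of the actin genes, A1 and A2, expressed in muscle, fell, and A3 did not pass. Their sum, nearly all from A3, was 293 to 323 CPM in GMS and 298 to 350 CPM in WT. Of 5 silk gland genes, 2 could be tested and did not pass, with sums of 14.7 to 17.7 CPM in GMS and 12.7 to 14.3 CPM in WT. Without WT replicate 3, all 3 actin genes were called lower and 1 silk gland gene higher, where 58.0% of all genes were called. None of these markers was at 0 in all libraries. The part of these tissues in the changes of the cuticular genes was not tested.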

How the data were processed

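Testis RNA of 6 libraries was analysed, 3 of GMS and 3 of WT, grouped by the sample titles. Per the labels' protocols, TRIzol was used for extraction and a TruSeq RNA kit for the libraries. This kit does not mark strand, so reads of a gene cannot be told by strand from those of an antisense gene over it. The tools were HISAT2 2.1.0 and featureCounts 1.6.2, per the submitters' processing notes. Neither genome build nor annotation is given in the sources used here. The authors deposited whole-number read counts per gene and, per the file headers, RPKM values for each library. Counts were tested, and RPKM was used to compare levels between genes and in 2 alternatives. Symbols come from the RefSeq gene table of ASM3026992v2, whose coordinates are not printed.

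The test was edgeR 4.0.16 in R 4.3.3: TMM factors, filterByExpr at its defaults, the quasi-likelihood F test with strain as its 1 term, and Benjamini-Hochberg adjustment over all 12029 genes tested. Standard errors are the log2 change divided by the square root of F. The test was run before use on simulated counts with few changed genes, all at a mean of 1 CPM or more. That run does not cover data with as many changes, or genes as low, as here. Alternatives used limma 3.58.1, DESeq2 1.42.0, other scaling, other filters and 1 library left out. The genes and lists were chosen with earlier results of these data known, so counts and medians are given and no list was tested. Values per library are given for called genes with at least a 2-fold change and a mean of at least 1 CPM in either strain, and for the 2 most abundant genes of each family by RPKM; those of CPT1 and CPG2 were added after their values were seen. Intervals are 95%, exact binomial, on summed counts scaled by effective library size, and cover counting error only. No sequence was used here.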

Additional observations from a re-analysis of the deposited data

How the results depend on the processing

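Of the 19 called genes, 14 kept their call and direction under every alternative that gave them a value, 9 higher (CPG9, CPG11, CPG14, CPG18, CPG20, CPT2, CPT3, CPT4 and CPH4) and 5 lower (CPT1, CPFL2, CPH30, CPH33 and CPH43). The other 5, CPG2, CPG24, CPFL1, CPH5 and CPH34, lost it under at least 1. With 1 library left out, there were 9 to 12 genes higher and 5 to 8 lower, 9 to 10 and 3 to 4 at 2-fold or more, and 2999 to 7104 of all genes called. The 7104 came without WT replicate 3. The counts at 2-fold, whose alternatives were added after the data were seen, fell to 8 higher and 2 lower with at least 1 CPM required in 3 libraries, since fewer genes were tested, and to 7 higher and 2 lower with limma on log2(RPKM + 1), where the pseudocount shrinks changes of low genes. The uncalled CPG10 ranged from -0.54 to 0.0073 with 1 library left out, above 0 without GMS replicate 1 (0.0025) or WT replicate 3 (0.0073). The uncalled CPG13 turned to -0.019 with RLE factors, -0.049 with upper-quartile factors, -0.012 with DESeq2, and ranged from -0.21 to 0.28 with 1 library left out, below 0 without GMS replicate 1 or 2 or WT replicate 1 or 3. With library totals only, the median log2 change of all genes moved from 0.05 to 0.15, and 13 genes of the set were higher and 7 lower. The cause of these turns was not tested. A read minimum of 5 or 50 in place of 10 gave 43 or 23 genes.

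The replicate numbers are shared by both strains, but deviations of same-numbered libraries correlated at 0.048, -0.17 and -0.17, so they were not taken as pairs. With the replicate number as a block, 9 genes were higher and 5 lower, and 3151 of all genes were called. The 5 calls not made with the block were CPG2, CPG24, CPFL1, CPH5 and CPH34 (edgeR adjusted p from 0.0542 to 0.0928). Depth limits the genes under about 10 reads in a strain, whose ratios have wide counting intervals.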
